A study of Canis lupus familiaris with 124 samples.

Results

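The genes described here were present in every tumour tissue of the series and near 0 in every cell line. A gene was a member when its CPM (its expected count divided by the total of the sample, times 1000000) were 5 or more in all 9 tissues and under 0.5 in all 8 cell lines. Of the 32183 genes measured, 8270 reached 5 CPM in all 9 tissues, and 30 of all genes (0.0932%) passed both limits. The 5 genes among them that belong to other gene groups (*KDR*, *CSF1R*, *MMP2*, *COL1A2* and *COL6A2*) were left out, so 25 members remained. The members were chosen by their measured CPM in tissues and cell lines, so that contrast is given as a description with no test.

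The study sequenced tumours of the canine urinary tract, namely adenocarcinoma of the prostate (PAC) and carcinoma of the transitional epithelium (TCC), both as tissue and as cell lines grown from tumours. The PAC tissues were the primary tumour P2 (dog 2, a male German Rough-haired Pointer of 6 years) and the lymph node metastases Ln4.2 and Ln4.3 (both of dog 4, a neutered male Dobermann of 6 years). The TCC tissues were P6.1 in the prostate and its lymph node metastasis Ln6.2 (dog 6, a neutered male Bolonka Zwetna of 9 years), and the bladder tumours B7 (Labrador Retriever, 10 years), B8 (Cairn Terrier, 11 years), B9 (neutered Miniature Pinscher, 8 years) and B10 (German Shepherd, 8 years), all from females. The cell lines were Adcarc0846 from P2, Adcarc1508 from a mixed breed dog of 11 years, Adcarc1511.1, Metadcarc1511.2 and Metadcarc1511.3 from dog 4 (the last pair from Ln4.2 and Ln4.3), TCC0840 from a Pitbull Terrier of 10 years, TCC1506 from B7 and TCC1509 from P6.1. The lines were grown in a medium with fetal calf serum and taken at passages from 68 to 448, with 2 or 3 libraries per line, while each tissue had 1 library. Among the primary tumours, those of the prostate came from males and those of the bladder from females. Among the tissues, all PAC came from males, and TCC came from females except in dog 6, while dog 4 alone supplied both PAC metastases. The paper's full name for the line TCC0840 gives the prostate as its origin. The paper's line Adcarc1258 and its tissues P1 and P3, with data from earlier experiments, were not among the samples used here.

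A tumour sample contains carcinoma cells and also macrophages, lymphocytes, vessels, fibroblasts and the matrix they lay down. A carcinoma line kept for many passages is usually taken to hold mainly tumour cells, which was not tested here. The study described B7 as almost purely tumour cells and the nodes Ln4.2 and Ln4.3 as holding lymphoid and connective tissue. In such bulk RNA, fewer cells of a type and less RNA per cell cannot be told apart.

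Expected counts summed to 11920463 to 18086895 in a tissue and to 33500674 to 55488800 in a line with its libraries pooled, so 3 counts equal 0.166 to 0.252 CPM in a tissue and 0.0541 to 0.0896 CPM in a line. These limits cover counting error only. The epithelial gene *EPCAM* was found in all samples, at 11.7 CPM (Ln6.2) to 2016 CPM (B8) in tissues and 26.6 to 879 CPM in lines. The prostate secretory gene *KLK2* was at 0 in all 17 samples. RNA of tissues and of lines was extracted with different kits, which cannot be told apart from the contrast the rule used.

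A symbol was known for 7 of the 25 members. They were *C1QB*, *C1QC*, *VCAM1*, *POSTN*, *C1QTNF6*, *DLA-79* and *LOC478984*. The other 18 have no symbol here and are given by Ensembl identifier. The study's enrichment lists, drawn from its own called genes, place 1 of them under immune response and 1 under cell adhesion. Over the 4 lists of genes by role, the members were 2 of 47 leukocyte genes, 1 of 19 endothelial genes, 2 of 48 matrix genes and 0 of 8 muscle genes.

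**Figure D1:**
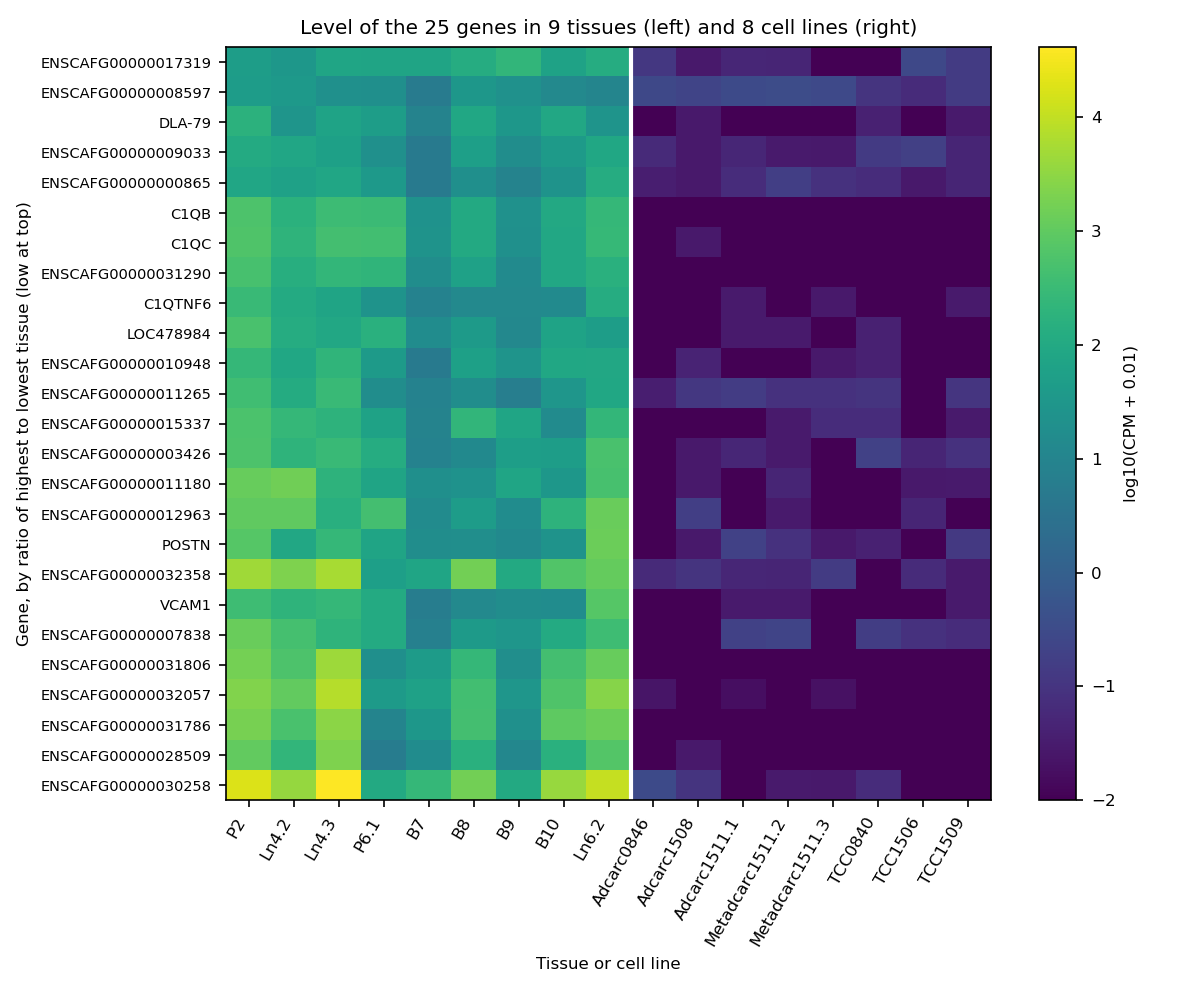
Level of each of the 25 members (rows, ordered by the ratio of the highest to the lowest tissue) in 9 tissues and 8 cell lines (columns), as log10 of CPM plus 0.01. All tissue cells lie above 5 CPM and all cell line cells below 0.5 CPM by the rule, B7 and B9 are the darkest tissue columns, and ENSCAFG00000030258 in the bottom row reached 40976 CPM in Ln4.3.

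C1q starts the classical complement pathway, and its B and C chains, encoded by *C1QB* and *C1QC*, are made mainly by macrophages. *C1QB* measured 599 CPM in P2, 165 in Ln4.2, 335 in Ln4.3, 317 in P6.1, 23.3 in B7, 106 in B8, 22 in B9, 99.5 in B10 and 249 in Ln6.2. *C1QC* measured 615 CPM in P2, 199 in Ln4.2, 433 in Ln4.3, 419 in P6.1, 25.5 in B7, 107 in B8, 21.2 in B9, 90.9 in B10 and 266 in Ln6.2. Both chains were thus highest in P2 and lowest in B9 and B7, and all 4 bladder tumours lay below the other 5 tissues. The ratio of *C1QC* to *C1QB* moved little, from 0.914 in B10 to 1.32 in P6.1 in CPM, with a median of 1.07. Per length, in TPM (counts divided by effective length and scaled to a common total), the median over tissues was 211 for *C1QC* and 122 for *C1QB*, and the ratio ran from 1.31 to 1.90.

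In the cell lines, *C1QB* had 0 counts in all 8 and *C1QC* 1 count in Adcarc1508 and 0 in the other 7. Against the level that 3 counts would give in its line, *C1QB* was at least 7592-fold lower in Adcarc0846 than in P2, and at least 413-fold lower in TCC1506 than in B7. One member without a symbol, ENSCAFG00000031290, followed the C1q chains over the tissues, with 497 CPM in P2 and 14.4 in B9, and also had 0 counts in all lines. Expected counts that were not whole occurred in 3 of 9 tissues for *C1QB* and in 4 for both *C1QC* and ENSCAFG00000031290, as in at least 3 tissues for 25.6% of the 8270 genes. Over the 9 tissues from 7 dogs, the Pearson correlation of log2 CPM was 1.00 between both chains, and 0.99 between this gene and each of them. These are descriptions over samples that share dogs, and *C1QB* and *C1QC* stand on the leukocyte list with 45 genes that are no members.

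*VCAM1* encodes an adhesion protein of activated endothelium and stromal cells, to which leukocytes bind. It measured 363 CPM in P2, 205 in Ln4.2, 250 in Ln4.3, 107 in P6.1, 6.22 in B7, 12.6 in B8, 17.4 in B9, 16.5 in B10 and 751 in Ln6.2. The 4 bladder tumours were low and did not overlap with the other 5 tissues. The gap between the highest and the lowest tissue was 121-fold, the widest among the members with a symbol. In the lines, *VCAM1* had 1 count each in Adcarc1511.1, Metadcarc1511.2 and TCC1509 and 0 in the other 5.

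*POSTN* encodes periostin, a matrix protein secreted by fibroblasts. It measured 731 CPM in P2, 90.8 in Ln4.2, 256 in Ln4.3, 71.8 in P6.1, 17.6 in B7, 18.0 in B8, 13.9 in B9, 24.6 in B10 and 1305 in Ln6.2. The node Ln6.2 was the highest, at 18.2 times the level of the primary tumour P6.1 of the same dog. In the lines, *POSTN* left 9 counts in Adcarc1511.1, 6 in TCC1509, 4 in Metadcarc1511.2, 1 each in Adcarc1508, Metadcarc1511.3 and TCC0840 and 0 in Adcarc0846 and TCC1506, which is 0.182 CPM at most.

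*C1QTNF6* encodes a secreted protein related to C1q and tumour necrosis factor. It measured 295 CPM in P2, 112 in Ln4.2, 73.8 in Ln4.3, 25.2 in P6.1, 8.53 in B7, 12.6 in B8, 13.2 in B9, 14.9 in B10 and 128 in Ln6.2. All 5 primary TCC lay under all 3 PAC tissues. The named genes most like it over the tissues (Pearson correlation of log2 CPM, among 663 named genes with 5 CPM in all tissues) were *PCOLCE* (0.99), *COL6A1* (0.98) and *COL6A2* (0.98), a search made after the values were seen. Symbols came only from the study's own gene lists of these samples, so such a match does not identify a function. In the lines, *C1QTNF6* had 3 counts in all.

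*DLA-79* is a class I gene of the dog major histocompatibility complex, whose proteins display peptides on the cell surface. It measured 174 CPM in P2, 28.5 in Ln4.2, 69.8 in Ln4.3, 47.9 in P6.1, 9.30 in B7, 89.5 in B8, 32.4 in B9, 94.4 in B10 and 26.8 in Ln6.2. Its order differed from that of the other named members, since B8 and B10 stood above both PAC nodes. Ln6.2 stood under P6.1 and both PAC nodes, as it also did for *LOC478984*. The expected counts of *DLA-79* were not whole (by more than 0.005) in 5 of 9 tissues, as in at least 5 tissues for 19.7% of the 8270 genes. The level of a gene whose reads are divided between features is uncertain. Together the lines held 3 counts of it.

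*LOC478984* measured 516 CPM in P2, 123 in Ln4.2, 94.9 in Ln4.3, 154 in P6.1, 16.2 in B7, 39.9 in B8, 11.9 in B9, 70.2 in B10 and 49.1 in Ln6.2. P2 was the highest, at 3.35 times the next tissue. Among the members it was the only 1 that was at least 2-fold lower in Ln6.2 than in P6.1.

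**Figure D2:**
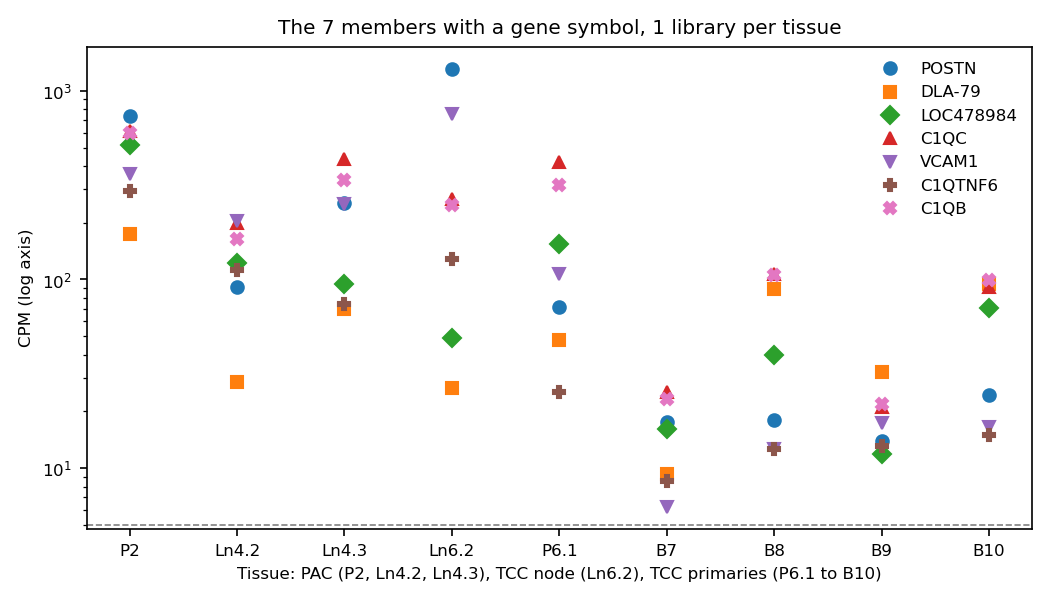
CPM of the 7 members with a symbol in each tissue (log axis, 1 library per tissue, dashed line at the limit of 5 CPM). *VCAM1*, *POSTN* and *C1QTNF6* lie under 30 CPM in the 4 bladder tumours and above 70 CPM in P2, Ln4.2, Ln4.3 and Ln6.2, whereas *DLA-79* in B8 and B10 lies above its level in both PAC nodes.

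The most abundant members had no symbol. The highest was ENSCAFG00000030258, with a median of 4468 TPM over the tissues. It measured 18055 CPM in P2, 3792 in Ln4.2, 40976 in Ln4.3, 106 in P6.1, 260 in B7, 1599 in B8, 102 in B9, 3964 in B10 and 10434 in Ln6.2. The tissues thus differed by 401-fold, the highest ratio not only of the members but of all 8270 genes. In the lines it had 11 counts in Adcarc0846, 5 in Adcarc1508, 2 in TCC0840, 1 each in both Metadcarc lines and 0 in the other 3.

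A set of 6 members without a symbol (ENSCAFG00000030258 and the 5 whose log2 CPM correlated with it at 0.9 or more) moved together, with pairwise correlations from 0.94 to 1.00 over the 9 tissues. The set was formed after the values were seen. It includes the other 2 members with the widest range. ENSCAFG00000028509 measured 1087 CPM in P2, 227 in Ln4.2, 2105 in Ln4.3, 5.96 in P6.1, 16.3 in B7, 153 in B8, 11.3 in B9, 158 in B10 and 715 in Ln6.2. ENSCAFG00000031786 measured 1754 CPM in P2, 517 in Ln4.2, 2868 in Ln4.3, 9.36 in P6.1, 32.2 in B7, 428 in B8, 21.4 in B9, 929 in B10 and 1356 in Ln6.2. All 6 genes were highest in Ln4.3, and their lowest tissue was P6.1 or B9. The set took 6.33% of all counts in Ln4.3, 2.97% in P2, 1.73% in Ln6.2 and 0.825% in Ln4.2. It took 0.676% in B10, 0.448% in B8, 0.0486% in B7, 0.0286% in B9 and 0.0234% in P6.1. In the last of these, the C1q chains were high, so the order of tissues for the set was not that of the C1q genes. Of the 6 genes, 5 had expected counts that were not whole in every tissue, as had 1 of the other 19 members and 13.9% of the 8270 genes. Such values arise where RSEM divides reads between features, so the level of each is uncertain. Summed over all lines, the set had 44.4 counts.

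**Figure D3:**
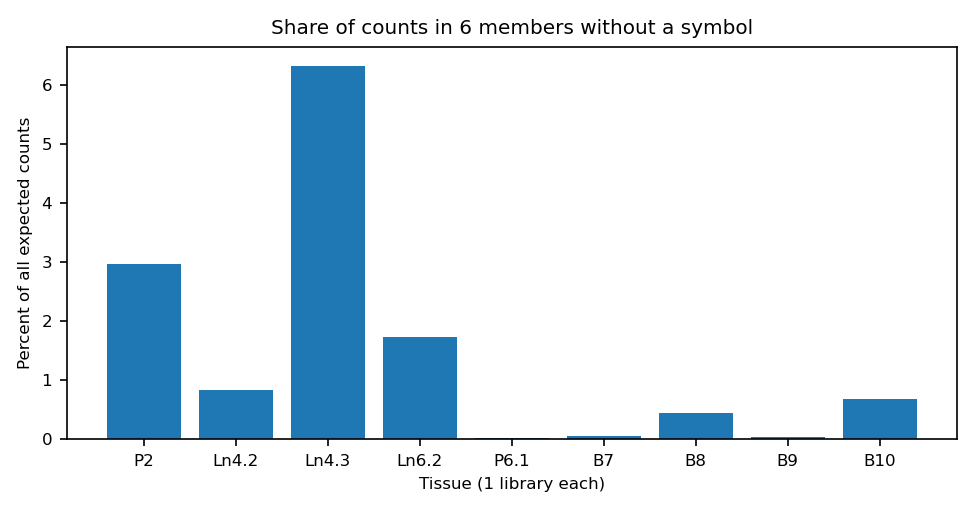
Percent of all expected counts taken by 6 members without a symbol in each tissue (bars from 0, 1 library per tissue). The bars run from 0.0234% in P6.1 to 6.33% in Ln4.3, with P2 (2.97%) and Ln6.2 (1.73%) next.

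The members with the narrowest range were ENSCAFG00000017319, ENSCAFG00000008597 and *DLA-79*. ENSCAFG00000017319 measured 48.2 CPM in P2, 31.5 in Ln4.2, 79.0 in Ln4.3, 74.3 in P6.1, 74.8 in B7, 121 in B8, 227 in B9, 65.5 in B10 and 123 in Ln6.2. It was highest in B9 and lowest in Ln4.2, unlike the other 24 members, and its correlation with each of them was negative (median -0.38). ENSCAFG00000008597 measured 44.5 CPM in P2, 35.6 in Ln4.2, 20.7 in Ln4.3, 19.4 in P6.1, 5.61 in B7, 32.1 in B8, 21.7 in B9, 13.1 in B10 and 10.4 in Ln6.2. It was the least absent of the members in the lines, with 3 to 17 counts in each (82.1 in all) and up to 0.329 CPM in Metadcarc1511.2. Its expected counts were not whole in any tissue.

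The members varied over the tissues far more than other genes of the tissues. The ratio of the highest to the lowest tissue had a median of 61.8 over the members (range 7.22 to 401), against 3.18 over all 8270 genes with 5 CPM in every tissue. It exceeded 20 in 22 of the 25 members and in 4.10% of the 8270 genes, and 100 in 8 members and in 0.544% of these genes. Those 8 include the set of 6 that moved together, so they are not 8 separate patterns. Without B7 the median ratio of the members was 43.3, and without P2 it was 43.4. In the tissues, the rule set a lower limit and used no difference among them. The members' median length was 2024 bases and that of the 8270 genes 2423.

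**Figure D4:**
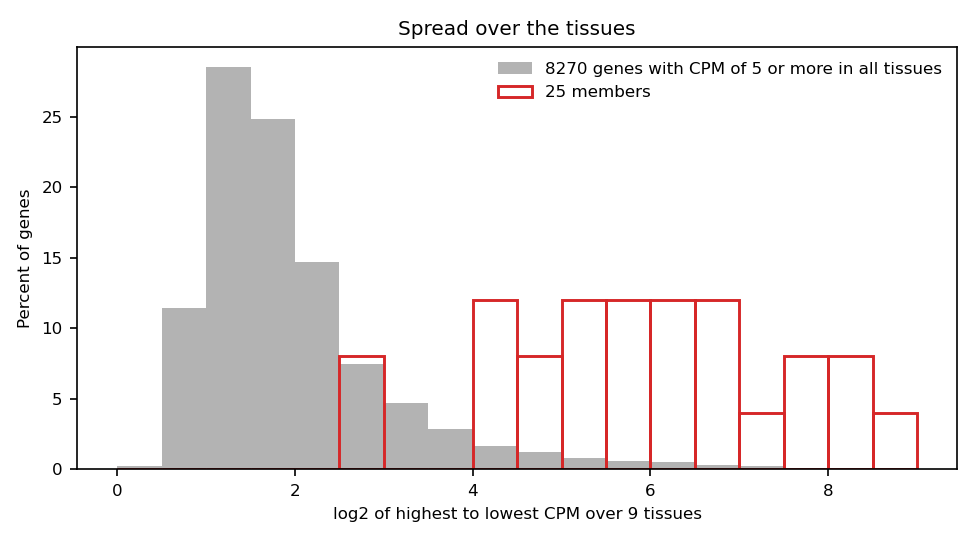
Percent of genes by log2 of the ratio between the highest and the lowest CPM of 9 tissues, for the 25 members (red outline) and all 8270 genes with 5 CPM or more in every tissue (grey bars). The median ratio is 61.8 for the members and 3.18 for all these genes.

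The tissues at the low end were nearly the same for all members. B7 was the lowest tissue for 12 members and B9 for 9, P6.1 for 3 and Ln4.2 for 1. Of the 8270 genes, 14.5% were lowest in B7, 5.47% in B9, 7.94% in P6.1 and 4.81% in Ln4.2. Within B7, 11 members lay under 10 CPM. The 3 lowest in P6.1 belong to the set of 6 that moved together, and all of that set was highest in Ln4.3. P2 was the highest tissue for 13 members (8.68% of the 8270 genes), Ln4.3 for 6 (6.22%), Ln6.2 for 4 (5.32%), Ln4.2 for 1 (3.11%) and B9 for 1 (17.6%). The median CPM of the members was 16.2 in B7, 21.4 in B9, 57.7 in B8, 63.9 in P6.1, 89.1 in B10, 199 in Ln4.2, 240 in Ln4.3, 266 in Ln6.2 and 598 in P2, while that of the 8270 genes ran only from 38.1 to 49.8. For 9 members, all 4 bladder tumours lay below all other 5 tissues, which was so for 3.65% of the 8270 genes. Among them were *C1QB*, *C1QC*, *VCAM1*, *POSTN* and *C1QTNF6*.

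Genes of leukocytes, endothelium and matrix that were no members moved in part with them. The 45 other leukocyte genes summed to 400 CPM in B7, the lowest, and to 5769 CPM in Ln4.3, the highest, but B9 held 2181 CPM. The 18 other endothelial genes summed to 428 CPM in B9 and 2263 CPM in P2. The 46 other matrix genes ran from 1885 CPM in B10 to 40419 CPM in P2, and all 4 bladder tumours were at or under 2183 CPM. In the lines, the same sums were 98.5 to 391 CPM for leukocyte, 149 to 353 for endothelial and 629 to 2240 for matrix genes. The 8 muscle genes summed to 74.6 (B8) to 1265 CPM (P2) in tissues and to 80.0 to 405 CPM in lines. The sums of matrix and of muscle genes thus overlapped between lines and tissues. Between 16 and 26 of the 45 leukocyte genes were at 0 in each line, compared with 0 to 2 in each tissue. The lists were drawn from symbols in the study's own gene lists, which include genes it called different between lines and tissues. Most of those were lower in the lines, so low values there were partly set in advance and are no separate support. The part of leukocytes, endothelium and matrix-producing cells in the members' levels was not tested.

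Within dog 6, 18 of the 25 members were at least 2-fold higher in the node Ln6.2 than in the primary P6.1 (2.94% of the 8270 genes), and *LOC478984* alone was at least 2-fold lower (6.66%). The median ratio over the members was 4.2, and over all 8270 genes it was 0.910. *VCAM1* was 7.01 times, *C1QTNF6* 5.07 times and the genes of the set of 6 between 20.7 and 145 times as high in the node. *C1QC* (0.634) and *C1QB* (0.785) were lower in the node, by less than 2-fold. Within dog 4, 13 members were at least 2-fold higher in Ln4.3 than in Ln4.2 (0.701%), among them *POSTN* (2.81), *DLA-79* (2.45), *C1QC* (2.18) and *C1QB* (2.04), and 3 were at least 2-fold lower (3.13%), all without a symbol. The set of 6, whose genes moved together, is part of both the 18 and the 13. Each value rests on 1 library per tissue, so these ratios have no replicate check.

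Primary TCC was compared with PAC over dogs (P6.1, B7, B8, B9 and B10 against P2 and the sum of Ln4.2 and Ln4.3), a contrast that the rule did not use. All TCC samples in it were primary tumours, while dog 4 gave PAC from lymph nodes only. All TCC but P6.1 were bladder tumours of females. Tumour class can therefore not be fully told apart from node or primary site, organ and sex. Of the 25 members, 4 were lower in TCC at an adjusted p of at most 0.05 (edgeR quasi-likelihood test, Benjamini-Hochberg over 15450 genes) and 0 were higher. Over all genes tested, 1.83% were called lower and 0.168% higher. The 4 were *POSTN*, *C1QTNF6*, ENSCAFG00000011180 and ENSCAFG00000011265, each with all 5 primary TCC below all 3 PAC tissues. This was so for 13 members and for 3.86% of the 8270 genes.

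*POSTN* fell by 3.89 on the log2 scale (SE 0.78, adjusted p = 0.0497) and *C1QTNF6* fell by 3.66 (SE 0.54, adjusted p = 0.0281). ENSCAFG00000011180 measured 1192 CPM in P2, 1532 in Ln4.2, 188 in Ln4.3, 72.3 in P6.1, 20.1 in B7, 24.0 in B8, 78.4 in B9, 31.3 in B10 and 482 in Ln6.2, and fell by 4.46 (SE 0.61, adjusted p = 0.0261). Among the 664 genes named from the study's own lists, those most like it over the tissues were *LOXL2* (0.99), *COL3A1* (0.98) and *COL1A1* (0.98). Such a match does not identify the gene. ENSCAFG00000011265 measured 375 CPM in P2, 119 in Ln4.2, 298 in Ln4.3, 17.8 in P6.1, 8.46 in B7, 17.1 in B8, 6.86 in B9, 29.4 in B10 and 89.4 in Ln6.2, and fell by 4.16 (SE 0.58, adjusted p = 0.0276). The named gene most like it was *LAPTM5* (0.96).

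In the other 21 members the test was not passed. *VCAM1* had a log2 fold change of -3.11 (SE 0.99, adjusted p = 0.158), *C1QB* of -1.82 (SE 0.98, adjusted p = 0.397), *C1QC* of -1.72 (SE 1.06, adjusted p = 0.455) and *DLA-79* of -1.0 (SE 0.81, adjusted p = 0.574). *LOC478984* stood at -2.33 (SE 0.98, adjusted p = 0.281) and ENSCAFG00000030258 at -4.06 (SE 1.33, adjusted p = 0.169). The estimate was below 0 in 24 of 25 members, with ENSCAFG00000017319 at 1.11 (SE 0.54, adjusted p = 0.351) as the exception. Its median was -2.59 over the members and 0.17 over all genes tested. Members whose estimates do not pass the test are not thereby shown to be alike in both classes.

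Here the 46 other matrix genes summed to 1885 to 3783 CPM in primary TCC and 5414 to 40419 CPM in PAC, and the 18 other endothelial genes to 428 to 832 and 843 to 2263 CPM. The 45 other leukocyte genes overlapped between the classes, at 400 to 4174 and 2383 to 5769 CPM. Their part in the result was not tested. Calls were few in several alternatives, over all genes as well as over the members. With 1 dog left out, 0 members were called without dog 2 (3 of 16405 genes), dog 8 (9 of 15152) or dog 9 (2 of 15365), and 2 without dog 4 (67 of 16226). Adding Ln6.2 to P6.1 left 0 members and 0 genes. The estimate of *POSTN* was -3.75 without dog 8 and -3.69 without dog 9, that of *C1QTNF6* -3.60 and -3.59. Without dog 2 they were -2.45 (SE 0.84) and -2.52 (SE 0.59), and without dog 4 they were -4.59 and -4.28. *POSTN* was -4.62 without dog 6. With Ln6.2 added, *POSTN* was -1.50 (SE 1.62), *C1QTNF6* -2.89 (SE 0.90) and ENSCAFG00000011180 -3.51 (SE 1.00). DESeq2 called 9 members, all lower in TCC, and 1663 of 15450 genes in all (10.8%), with 7.34% called lower.

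Lymph node metastases (the sum of Ln4.2 and Ln4.3, and Ln6.2) were compared with the primary tumours P2, B7, B8, B9 and B10 in the same way. In edgeR, 0 of the 25 members and 0 of 15497 genes (0.0%) passed an adjusted p of 0.05. Genes that did not pass are not thereby shown to be alike in nodes and primary tumours. Among all genes, 573 had an unadjusted p under 0.05 and DESeq2 called 85, and among the members these counts were 0 and 0. The estimates were above 0 in 21 members, with *VCAM1* at 2.73 (SE 1.51, adjusted p = 0.941) and *POSTN* at 2.40 (SE 1.68, adjusted p = 0.941). Without dog 2, whose P2 was the highest tissue for most members, 4 members were called higher in the nodes, as were 0.981% of all genes tested. They were *VCAM1* (5.36, SE 0.66, adjusted p = 0.0305), *C1QTNF6* (3.25, SE 0.39, adjusted p = 0.0305), *POSTN* (5.48, SE 0.80, adjusted p = 0.0414) and ENSCAFG00000011180 (4.16, SE 0.60, adjusted p = 0.0414). The primaries that then remained were all bladder TCC. Both contrasts share P2, the bladder tumours and the nodes of dog 4.

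**Figure D5:**
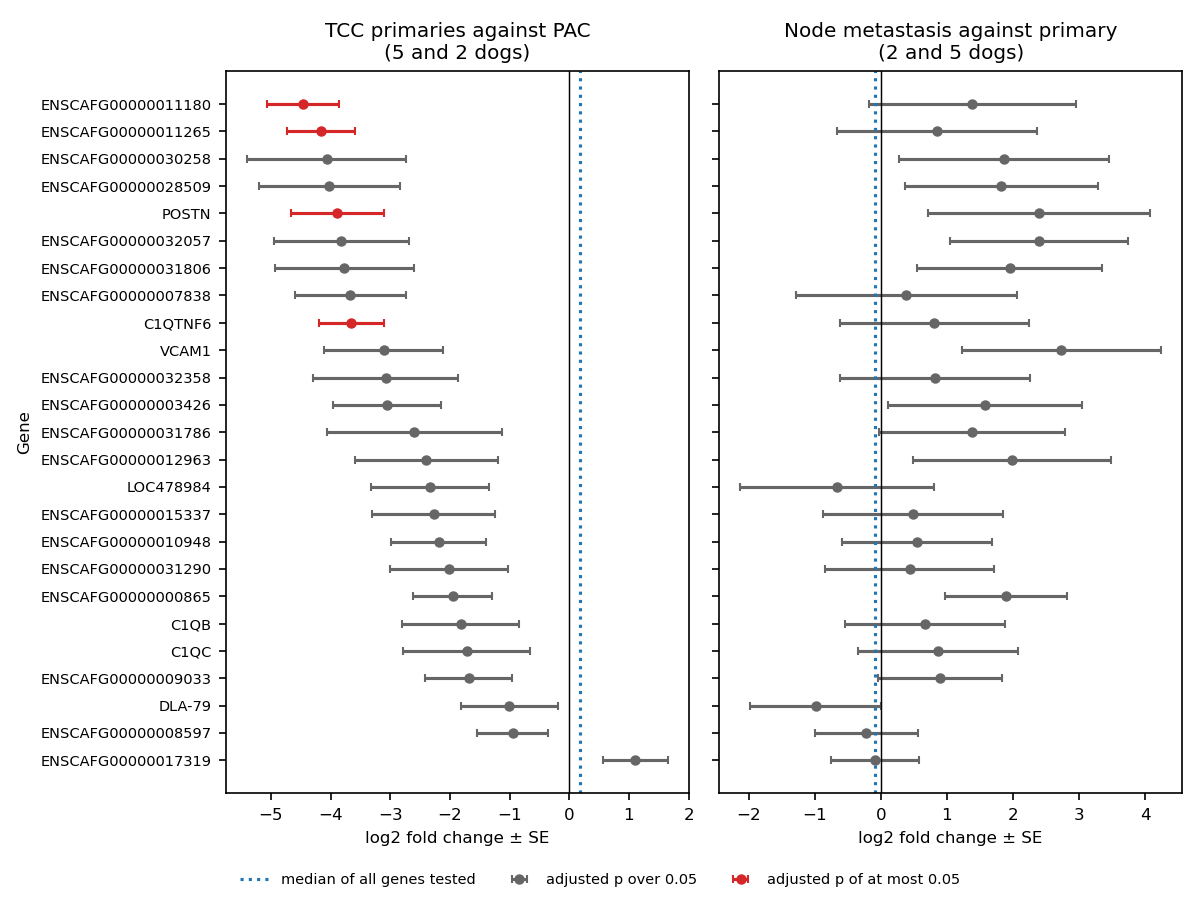
Log2 fold change with its SE (edgeR) of each member for primary TCC against PAC (left, 5 and 2 dogs) and for node metastasis against primary tumour (right, 2 and 5 dogs), with calls at an adjusted p of at most 0.05 in red and the median of all genes tested dotted. On the left 24 of 25 points lie below 0 and 4 are called, and on the right 21 lie above 0 and 0 are called.

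What remained of the members in the lines was a handful of reads. All 25 members together had 341 counts in all 8 lines, between 31.0 in TCC0840 and 57.0 in Metadcarc1511.2, or 0.733 to 1.10 CPM per line summed over the members. In each line 10 to 17 members had 0 counts and 3 to 5 had more than 3. In all 8 lines, 4 members had 0 counts (*C1QB*, ENSCAFG00000031290, ENSCAFG00000031786 and ENSCAFG00000031806), and 14 had at most 3 counts in every line. In single libraries, 2 members passed 0.5 CPM, ENSCAFG00000017319 with 0.624 CPM in TCC1506 at passage 107 and ENSCAFG00000008597 with 0.550 CPM in Metadcarc1511.2 at passage 79.

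For 5 tissues the line grown from that tissue was sequenced. Of the members with 0 counts in the line, 17 in Adcarc0846 were at least 2209-fold to 22226-fold lower than in P2, and 10 in Metadcarc1511.2 at least 492-fold to 17718-fold lower than in Ln4.2. In Metadcarc1511.3, 14 members were at least 1221-fold to 75001-fold lower than in Ln4.3. In TCC1509, 11 were at least 103-fold to 7344-fold lower than in P6.1, and in TCC1506, 16 were at least 93.3-fold to 4606-fold lower than in B7. These bounds use 3 counts as the level of a gene at 0, so they follow the tissue's level and the depth of the line.

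Named genes on either side of the limits were as follows. Just inside the tissue limit, the lowest tissue of 3 members without a symbol measured 5.13, 5.26 and 5.45 CPM, in each case B7. Just outside it were *PXDN*, a matrix peroxidase (4.74 CPM in B7), *SEMA6D* (4.58 in B8) and *ITGAX*, an integrin of dendritic cells and macrophages (4.3 in B7). At the line limit the highest members reached 0.329, 0.289 and 0.263 CPM, and the nearest named genes outside were *SERPINA1* (2.43 CPM in TCC1506), *PCOLCE* (3.14 in Metadcarc1511.3) and *VWF* (3.35 in Adcarc1508). A further 50 genes under 0.5 CPM in all lines reached 5 CPM in 8 tissues, and 42 of these were missing in B7. They include *TYROBP* (1.73 CPM in B7) and *SPI1* (1.47) of the myeloid lineage and *CD93* (3.4) and *LYVE1* (1.15) of endothelium. Of 22 genes that failed in a single line, 15 failed in TCC1506.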

How the data were processed

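RNA sequencing data of 9 canine tumour tissues and 8 cell lines were used (31 libraries, 4 lanes each, 124 tables). According to the study's methods and the submitters' processing notes, the authors used Trimmomatic 0.36 on single reads, STAR 2.5.3 for alignment against CanFam3.1 and RSEM 1.3.0 to quantify Ensembl genes. The authors deposited expected counts per lane, with no normalization (17.4% of values above 0 were not whole). The deposited TPM and FPKM were not used, and the authors' effective lengths (deposited with each table) served to compute TPM from the summed counts. Transcript lengths are other values deposited by the authors.

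Expected counts were summed over lanes and libraries of a tissue or line, divided by the total for CPM, and rounded for tests. Contrasts among tissues used dogs as replicates in edgeR 4.0.16 (TMM, filterByExpr, R 4.3.3), with DESeq2 1.42.0 as the alternative. P-values measure the spread between dogs, with 1 library per tissue. In simulated counts, 200 genes were changed 4-fold. TCC against PAC recovered 97% at a biological coefficient of variation of 0.1, 54% at 0.4 and 0% at 0.7. Nodes against primary tumours recovered 98%, 65.5% and 0% at these settings. In the data, the common dispersion (the square of this coefficient) was 0.467 for TCC against PAC and 0.648 for nodes. Of the settings, 0.7 lay nearest to both, so a lack of calls does not show that genes are alike. Python 3.11.15, pandas 2.3.3, numpy 2.4.6 and matplotlib 3.10.9 were used.

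The members and lists were chosen with earlier results of these data known. Symbols came from the study's own lists (1120 identifiers). All members with a symbol are named, and members without one where they were called in a contrast or had 1 of the 3 widest or narrowest ranges, which is more than the 2 identifiers first planned.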

Additional observations from a re-analysis of the deposited data

Results flagged for a closer look

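In the 5 primary TCC, the highest sample stood far from the other 4 in 4 of the 14 members described by tissue, by Dixon's test at its 95% critical value of 0.71. In each case it was P6.1, the tumour in the prostate, against the 4 bladder tumours. *POSTN* measured 71.8 CPM there and at most 24.6 CPM in the others, *VCAM1* 107 and at most 17.4 CPM, *C1QC* 419 and at most 107 CPM, and *C1QB* 317 and at most 106 CPM. Chance flags about 1 in 20 such groups where values are normally distributed. The flags were made on CPM and not on log2 CPM, so this rate may not hold here. The 4 flags share the same 5 libraries.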

How the results depend on the processing

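The number of members (25) was 12 with a limit of 10 CPM and 66 with a limit of 2 CPM in the tissues. With single samples left out it ran from 25 to 67, the highest without B7, and it was 40 without TCC1506. These limits and samples define the members by construction. With TMM-scaled CPM 24 of the 25 members were kept, and with each line library taken singly 23. The median ratio over tissues ran from 43.3 to 61.8 with tissues left out. For TCC against PAC (4 members called), DESeq2 called 9, adding Ln6.2 to P6.1 left 0, an adjusted p of at most 0.01 with at least 2-fold left 0, and leaving out dogs gave 0 to 5. Over all genes, against 308, these counts were 1663, 0, 4 and 2 to 434, with 693 for no count filter and 692 for each tissue as its own sample. The adjusted p over these alternatives ran from 0.000199 to 0.706 for *POSTN* and from 1.31e-06 to 0.317 for *C1QTNF6*, and the cause was not tested. Of the genes called, 91.6% were lower in TCC, 92.9% with library totals, 92.8% with DESeq2 size factors and 68.2% in DESeq2. For nodes against primary tumours, leaving out dogs gave 0 to 4 called members, and over all genes 159 without dog 2. With dogs left out, the log2 fold change of *DLA-79* ran from -1.67 to 0.22 in the first contrast (above 0 only without dog 2). In the other, *LOC478984* ran from -1.24 to 1.22 (above 0 only without dog 2), ENSCAFG00000008597 from -0.99 to 0.18 (0.18 without dog 6, 0.10 without dog 2) and ENSCAFG00000017319 from -1.01 to 0.39 (0.39 without dog 4, 0.34 without dog 9). The median log2 fold change of all genes for nodes was -0.08, and -0.19 with library totals. Pairing by dog was possible for nodes against primary tumours only, since each dog had 1 tumour class. That fit, added after seeing the data, took each tissue as its own sample and the dog as replicate block. Dog 6 alone gave its estimate and both nodes of dog 4 its only residual degree of freedom (1). It called 0 members and 0 of 15008 genes (2154 at an unadjusted p under 0.05). Among the members described by tissue, *C1QC* (-0.58), *C1QB* (-0.27) and ENSCAFG00000017319 (0.80) changed sign. Over all 25 members, 6 estimates were below 0 in that fit and 4 in the main fit. In the simulation, the recovery fell with the spread, and neither depth nor the number of dogs was varied.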
